A study of Mus musculus with 9 samples.

Results

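Hyaluronan is a long sugar polymer that cells extrude into the space around them, and in the early heart it fills the cardiac jelly, the gel between the muscle layer and the inner endothelial lining. The gel is made by hyaluronan synthases, is tied to the large proteoglycan versican by link proteins, and is read by surface receptors. In mouse embryos the loss of Has2 or of Vcan leaves the heart without normal jelly and cushions. The genes described here are 8 such genes: the synthases Has1, Has2 and Has3, the hyaluronan-binding proteins Hapln1, Vcan, Cd44 and Tnfaip6, and the basement membrane proteoglycan Hspg2. They make up 8 of the 14860 genes with a named value in the series. The set was chosen by function, together with a strong difference of Hapln1 between the progenitor gates. It was therefore selected on measured values, so differences between the gates are given for all 8 genes without a test, and Hapln1 is described without a test in every comparison.

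The study profiled mouse embryonic stem cells of the line E14.1 (129/Ola) during differentiation into heart cells, with Affymetrix Mouse Exon 1.0 ST arrays, 3 for each of 3 groups. The cTnT+ group is cardiomyocytes grown onward from the sorted Flk1+Pdgfra+ cells, and the labels do not say whether they were sorted again for cardiac troponin T. The Flk1+Pdgfra+ group is cardiac progenitors sorted for both receptors. The Flk1+ group is progenitors sorted for Flk1 without Pdgfra. All groups share the 1 cell line, and the labels give neither the days of culture nor whether a group's 3 arrays are independent cultures. The p-values therefore rest on array-to-array spread alone, and that spread may be technical. Values are log2 RMA expression values, which have no true 0, and a value of 1 row is no exact measure beside that of another. Differences between groups are therefore taken gene by gene. The summed marker levels, the mention of a brightest marker and the lower quartiles do set rows side by side, and serve as a rough guide.

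The groups carried the markers of their labels. Pdgfra was at 11.42, 10.95 and 11.56 in cTnT+, at 11.14, 11.07 and 11.84 in Flk1+Pdgfra+ and at 6.55, 6.99 and 7.35 in Flk1+. It thus set Flk1+ apart, but not cTnT+ from Flk1+Pdgfra+. Kdr, the gene of Flk1, averaged 10.84 in cTnT+, 11.98 in Flk1+Pdgfra+ and 12.30 in Flk1+. Tnnt2, the gene of cardiac troponin T, averaged 12.28, 7.01 and 8.36 in the same order. All 7 measured cardiomyocyte markers rose in cTnT+ over both progenitor groups. The cTnT+ arrays also held other cell types' markers: of the 7 fibroblast and mesenchyme markers 6 rose over Flk1+Pdgfra+, and of the 9 endothelial and endocardial markers 7 rose. So did 3 of 4 smooth muscle and 3 of 5 epicardial markers. Against Flk1+ all 7 fibroblast markers rose, while of the endothelial markers 2 rose and 2 fell. Among all genes 22.5% rose over Flk1+Pdgfra+, and against Flk1+ 22.6% rose and 16.6% fell. The third array stood apart in both progenitor groups: the log2 summed level of 6 pluripotency markers was 12.74 on Flk1+ replicate 3 and 8.93 and 9.47 on the other Flk1+ arrays, and that of the endothelial markers was 10.37 on Flk1+Pdgfra+ replicate 3 and 11.79 and 11.87 on the other arrays of that gate. Flk1+ replicate 3 was also the highest of its group for the log2 summed endoderm markers (12.16) and smooth muscle markers (12.17), so it did not stand apart by pluripotency markers alone. In such bulk samples, fewer cells of a type and less RNA per cell cannot be told apart.

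**Figure D1:**
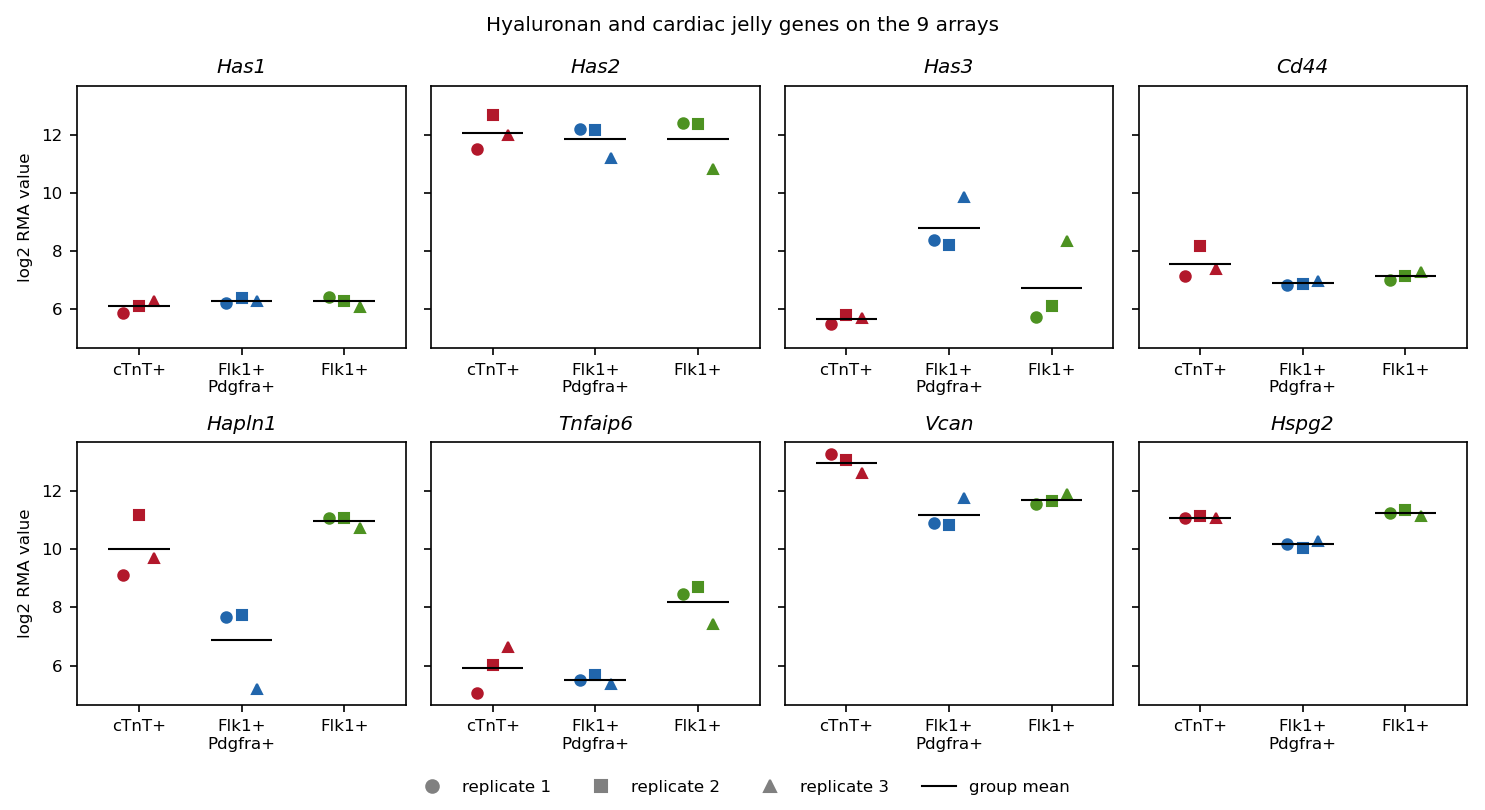
Log2 RMA value (y axis) of the 8 genes on every array, by group (x axis), with the replicate number given by the marker and the group mean by a bar. Hapln1 lies low in Flk1+Pdgfra+ (5.20 to 7.74) and Tnfaip6 lies high in Flk1+ (7.43 to 8.71), while Has2 stays between 10.81 and 12.69 in all groups.

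The link protein gene Hapln1 and the versican gene Vcan are neighbours on chromosome 13, with 0 protein-coding genes between them in the RefSeq table of GRCm38.p6. The means of both were lowest in Flk1+Pdgfra+. Highest was the Flk1+ mean for Hapln1 and the cTnT+ mean for Vcan, but the Hapln1 arrays of Flk1+ and cTnT+ overlapped. Hapln1 and Tnfaip6 lie on different chromosomes. The mean of each was highest in Flk1+, but only for Tnfaip6 did every Flk1+ array lie above all others. The 250 bases before the RefSeq start of these 3 genes are shown because Hapln1 and Vcan are neighbours whose group means differed in order. Another reason is that Tnfaip6 and Hapln1 had the largest differences between the gates. They lie at chr13:89540386-89540635 (plus strand), chr2:52037863-52038112 (plus strand) and chr13:89742513-89742762 (minus strand) in GRCm38.p6 and are written 5′ to 3′ on the strand of the gene. Capitals mark matches to any of the words searched.
Hapln1: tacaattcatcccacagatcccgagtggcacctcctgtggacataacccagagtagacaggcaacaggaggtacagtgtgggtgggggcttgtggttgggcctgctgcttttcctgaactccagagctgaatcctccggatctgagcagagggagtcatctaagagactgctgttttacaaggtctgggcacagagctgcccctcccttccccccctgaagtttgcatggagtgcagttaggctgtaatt
Tnfaip6: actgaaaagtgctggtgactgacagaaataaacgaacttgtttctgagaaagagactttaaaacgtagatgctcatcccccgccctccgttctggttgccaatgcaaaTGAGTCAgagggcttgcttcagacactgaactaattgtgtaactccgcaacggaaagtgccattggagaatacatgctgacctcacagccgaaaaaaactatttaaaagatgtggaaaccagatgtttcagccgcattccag
Vcan: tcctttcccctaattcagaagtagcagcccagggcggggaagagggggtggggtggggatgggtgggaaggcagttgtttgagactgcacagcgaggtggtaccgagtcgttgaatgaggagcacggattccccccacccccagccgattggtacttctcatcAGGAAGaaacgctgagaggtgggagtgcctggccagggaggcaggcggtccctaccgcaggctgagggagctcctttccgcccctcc

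Searched on both strands were GATAA for GATA factors, AGGAAG for ETS factors, TGANTCA for AP-1 and TATAAA for the TATA box, all picked after the sequences had been seen. No match overlaps another in the 3 windows. The Tnfaip6 window held 1 match to TGANTCA, a word found in 6.75% of 32851 windows of this length. The Vcan window held 1 match to AGGAAG, found in 29.5%. The Hapln1 window held 0 matches to any of the 4 words, of which GATAA occurs in 22.6% of windows and TATAAA in 12.4%. A match is a description of the letters and not evidence of binding. Promoter sequences matched 6 of the 8 genes.

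Of the synthases, Has2 makes most hyaluronan of the embryonic heart in mice. It was at 11.50, 12.69 and 11.98 in cTnT+, at 12.19, 12.17 and 11.21 in Flk1+Pdgfra+ and at 12.42, 12.39 and 10.81 in Flk1+. The groups overlapped throughout, and the spread within a group (SD 0.60, 0.56 and 0.92) exceeded every difference between group means, which spanned 0.20. By limma the difference of cTnT+ from Flk1+Pdgfra+ was 0.20 with a 95% interval from -0.94 to 1.35 (adjusted p = 0.787), and that from Flk1+ was 0.18 with an interval from -0.96 to 1.33 (adjusted p = 0.814). With 3 arrays a group, changes inside these intervals are not excluded. Both differences turned negative when the third arrays of the progenitor groups were left out (-0.12 and -0.35).

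Has1, a synthase of low activity, was low on every array, a little above the lower quartile, and lay between 5.87 and 6.30 in cTnT+, between 6.22 and 6.38 in Flk1+Pdgfra+ and between 6.09 and 6.44 in Flk1+. The lower quartiles of the arrays were 5.60 to 5.69, and no detection call was used, so whether Has1 was expressed is not known. Its differences of cTnT+ from Flk1+Pdgfra+ (-0.20, adjusted p = 0.268) and from Flk1+ (-0.17, adjusted p = 0.356) did not pass limma.

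Has3, the synthase known for shorter chains in vitro, was the only one of the 3 synthases that passed the test. It was at 5.51, 5.79 and 5.70 in cTnT+, at 8.37, 8.22 and 9.85 in Flk1+Pdgfra+ and at 5.75, 6.11 and 8.35 in Flk1+. All cTnT+ arrays lay below all Flk1+Pdgfra+ arrays, and Has3 fell by 3.15 on the log2 scale, 8.86-fold (SE 0.68, 95% interval -4.71 to -1.59, adjusted p = 0.00618). The cTnT+ values are at the lower quartiles of the arrays, so the fold is no exact measure. Against Flk1+ the difference of cTnT+ was -1.07 (adjusted p = 0.263), and it was -0.26 without Flk1+ replicate 3 (adjusted p = 0.700). That array was the high one of its group, as it was for the pluripotency markers. It was also the high one for the log2 summed endoderm markers (12.16 beside 10.08 and 10.32) and smooth muscle markers (12.17 beside 8.62 and 8.73). The same held for the fibroblast and cartilage markers, while it was the low one for the endothelial, blood, cardiomyocyte and epicardial markers.

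Between the gates Has3 was higher in Flk1+Pdgfra+ by 2.08 on the log2 scale, with overlapping arrays. The 2 highest Has3 values came from the third Flk1+Pdgfra+ array and from its first, at log2 summed pluripotency levels of 14.01 and 13.38. Of the markers in that sum Tdgf1 was the brightest on these arrays, at 13.46 and 12.88, so the sum leans on it. The 3 genes most like Has3 over the 9 arrays, by the root mean square difference of their mean-centred log2 profiles, were Pla2g1b (0.30), Cyp4f15 (0.36) and the trophoblast and germ cell factor Tfap2c (0.39). Of the 6 pluripotency markers 3 fell in cTnT+ against Flk1+Pdgfra+ and 0 rose, beside 18.7% and 22.5% of all genes. The part of these markers in the result for Has3 was not tested.

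Hapln1 encodes the link protein that locks versican onto hyaluronan, and mice without it have heart septation defects. It was at 9.12, 11.18 and 9.71 in cTnT+, at 7.68, 7.74 and 5.20 in Flk1+Pdgfra+ and at 11.09, 11.09 and 10.74 in Flk1+. Every Flk1+Pdgfra+ array lay below every array of the other groups, while cTnT+ and Flk1+ overlapped through the second cTnT+ array. The mean of Flk1+Pdgfra+ (6.87 ± 1.45, SD, n = 3) was 4.10 below that of Flk1+ (10.97 ± 0.20) and that of cTnT+ (10.00 ± 1.06) was 3.13 above it. The order of the means was thus Flk1+, cTnT+, Flk1+Pdgfra+, and the upper neighbours in it differed by 0.97, less than the SD of cTnT+. Without the third progenitor arrays the gate difference was -3.38 and that of cTnT+ from Flk1+Pdgfra+ was 2.30.

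Hapln1 ran alongside the endothelial markers: ordered by marker level, the arrays were also in the order of their Hapln1 values, apart from cTnT+ replicate 2, which had the highest Hapln1 value. On the log2 summed level of the 9 endothelial and endocardial markers, cTnT+ ranged from 13.39 to 14.04, Flk1+Pdgfra+ from 10.37 to 11.87 and Flk1+ from 13.73 to 14.65. The lowest Hapln1 value and the lowest marker level fell on the same array, Flk1+Pdgfra+ replicate 3, and the highest Hapln1 value among the cTnT+ arrays came with the highest marker level of that group. Of the 9 markers 7 rose and 0 fell in cTnT+ against Flk1+Pdgfra+, and 0 rose and 6 fell in Flk1+Pdgfra+ against Flk1+. Over all genes 22.5% rose in the first of these comparisons and 5.87% fell in the second. In cTnT+ against Flk1+, 2 of the markers rose and 2 fell. None of the 9 lay under the lower quartiles on all arrays. The genes most like Hapln1 over the 9 arrays were the lymphocyte and endothelial GTPase gene Gimap4 (root mean square difference 0.41), the endothelial adhesion molecule Pecam1 (0.44) and Myct1 (0.44). The part of endothelial cells in these levels was not tested.

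**Figure D2:**
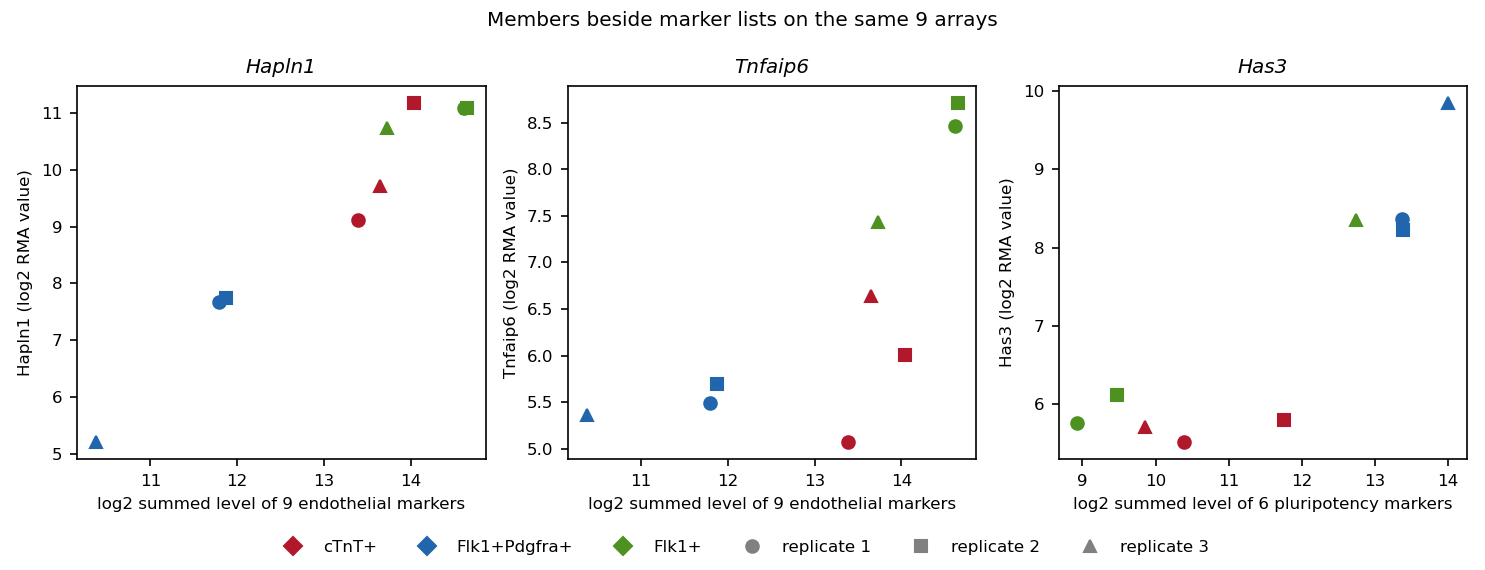
Log2 RMA value of Hapln1, Tnfaip6 and Has3 (y axes) against the log2 summed level of a marker list on the same array (x axes), with groups in colour and replicate numbers as markers. Hapln1 runs with the endothelial list (5.20 at a marker level of 10.37, 11.09 at 14.65) apart from cTnT+ replicate 2 (11.18 at 14.04), Tnfaip6 does not in cTnT+ (5.07 to 6.64 at 13.39 to 14.04), and the Has3 values of 8.22 and more lie at pluripotency levels of 12.74 and above.

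Tnfaip6, also known as TSG-6, is a secreted protein that moves heavy chains of the inter-alpha-inhibitor onto hyaluronan. It was at 5.07, 6.01 and 6.64 in cTnT+, at 5.49, 5.69 and 5.36 in Flk1+Pdgfra+ and at 8.46, 8.71 and 7.43 in Flk1+. The Flk1+ arrays lay above all others, and the remaining groups overlapped. In cTnT+ it fell by 2.29 on the log2 scale against Flk1+, 4.9-fold (SE 0.43, 95% interval -3.28 to -1.30, adjusted p = 0.00346), and it differed by 0.40 from Flk1+Pdgfra+ (adjusted p = 0.515). The log2 summed level of the 6 measured blood cell markers ranged from 10.69 to 10.94 in cTnT+, from 10.47 to 11.33 in Flk1+Pdgfra+ and from 12.10 to 12.71 in Flk1+. Of these markers 3 fell and 1 rose in cTnT+ against Flk1+, beside 16.6% and 22.6% of all genes. The sum in Flk1+ leans on its brightest rows, Tal1, Runx1 and Itga2b. Their means were 11.22, 10.91 and 10.02 in Flk1+ and 8.90, 8.74 and 8.54 in cTnT+. The means of the other 3, Gata1, Klf1 and Ptprc, were higher in cTnT+ than in Flk1+ (Gata1 8.30 and 7.47). The blood cell list thus did not move as a whole. The part of these markers in the result for Tnfaip6 was not tested. Between the gates the mean of Flk1+Pdgfra+ was 2.69 below that of Flk1+, a fold of 6.45 that is no exact measure because the lower values sit at the lower quartiles of the arrays.

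Hapln1 and Tnfaip6 were both lower in Flk1+Pdgfra+ than in Flk1+, as were 6 of the 8 genes by their means, and they differed in where cTnT+ lay. Hapln1 in cTnT+ was 3.13 above Flk1+Pdgfra+, and Tnfaip6 in cTnT+ was 0.40 above it. The genes most like Tnfaip6 included Tlr3 (0.35) and the cation channel gene Trpc6 (0.36). Among the heavy chain genes of the inter-alpha-inhibitor family, Itih5 rose in cTnT+ over Flk1+Pdgfra+ by 1.80 (adjusted p = 0.00123) and over Flk1+ by 2.13 (adjusted p = 0.000618). Singled out after their values were seen, Itih1, Itih2, Itih3, Itih4 and the light chain gene Ambp lay between 4.90 and 5.81 on all arrays, about at the lower quartiles, and none passed limma in any comparison.

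Vcan encodes versican, the large chondroitin sulfate proteoglycan of the cardiac jelly. It was at 13.27, 13.07 and 12.62 in cTnT+, at 10.89, 10.85 and 11.77 in Flk1+Pdgfra+ and at 11.54, 11.67 and 11.89 in Flk1+. All cTnT+ arrays lay above all progenitor arrays. Vcan rose by 1.81 on the log2 scale over Flk1+Pdgfra+, 3.52-fold (SE 0.27, 95% interval 1.20 to 2.42, adjusted p = 0.000876). Over Flk1+ it rose by 1.28, 2.43-fold (SE 0.27, 95% interval 0.67 to 1.89, adjusted p = 0.00547). Between the gates the arrays overlapped, and the mean of Flk1+Pdgfra+ was 0.53 below that of Flk1+. The value sums up probes over the gene, so the splice forms of versican, and likewise those of Cd44, were not told apart.

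Vcan was thus highest in cTnT+, where the mean of its neighbour Hapln1 lay between those of the progenitor groups. The genes most like Vcan were Akr1e1 (0.17), Cpeb4 (0.18) and Cap2 (0.22), an actin-binding protein gene of striated muscle. Picked after their values were seen, the other link protein genes also each neighbour a lectican gene with 0 protein-coding genes between them. Hapln3 rose in cTnT+ over Flk1+Pdgfra+ by 0.64 while its neighbour Acan differed by -0.03, and Hapln4 rose by 1.02 while its neighbour Ncan differed by -0.39, and neither Acan nor Ncan passed limma. Hapln2 and Bcan passed limma in none of the 3 comparisons.

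Cd44, a surface receptor for hyaluronan, was at 7.13, 8.18 and 7.38 in cTnT+, at 6.82, 6.88 and 6.96 in Flk1+Pdgfra+ and at 7.01, 7.16 and 7.27 in Flk1+. The cTnT+ arrays lay above all Flk1+Pdgfra+ arrays and overlapped with Flk1+. Its difference of 0.67 from Flk1+Pdgfra+ (SE 0.24, 95% interval 0.13 to 1.22) just missed the threshold by limma (adjusted p = 0.0515). The call turned on single arrays: without cTnT+ replicate 1 the difference was 0.89 (adjusted p = 0.0167), and without cTnT+ replicate 2, the high one, it was 0.37 (adjusted p = 0.0473). Against Flk1+ the difference of cTnT+ was 0.42 (adjusted p = 0.212), and between the gates that of Flk1+Pdgfra+ from Flk1+ was -0.26.

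Hspg2 encodes perlecan, a heparan sulfate proteoglycan of basement membranes. It was at 11.08, 11.13 and 11.06 in cTnT+, at 10.17, 10.04 and 10.29 in Flk1+Pdgfra+ and at 11.23, 11.35 and 11.16 in Flk1+. It had the tightest cTnT+ values of the 8 genes, and Flk1+Pdgfra+ lay below the other groups on every array. Hspg2 rose in cTnT+ over Flk1+Pdgfra+ by 0.92, 1.89-fold (SE 0.09, 95% interval 0.71 to 1.13, adjusted p = 0.000127). From Flk1+ it differed by -0.16 (95% interval -0.37 to 0.05, adjusted p = 0.214). Between the gates the mean of Flk1+Pdgfra+ was 1.08 below that of Flk1+, the same order over the groups as for Hapln1. The genes most like it were the talin gene Tln1 (0.11), Serinc5 (0.12) and Tmem9b (0.14).

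Counted over the 7 genes that were tested, 2 rose (Vcan and Hspg2), 1 fell (Has3) and 4 did not pass in cTnT+ against Flk1+Pdgfra+. Among all genes in that comparison 22.5% rose and 18.7% fell by limma at an adjusted p under 0.05, so the shares among the 7 genes were near the background. Against Flk1+, 1 rose (Vcan), 1 fell (Tnfaip6) and 5 did not pass, with 22.6% and 16.6% over all genes. The median difference of the 7 genes was 0.40 and -0.16 in these comparisons, beside 0.00 and 0.05 over all genes. The comparisons share the cTnT+ arrays. The split of calls over all genes depended on the scaling: with arrays centred on the median of the named genes, which shifts the median difference in cTnT+ against Flk1+Pdgfra+ to -0.32 and against Flk1+ to -0.28, 1994 genes rose and 5406 fell in the first and 1909 rose and 4721 fell in the second. Vcan, Hspg2 and Has3 kept their direction and call in the first comparison under that scaling, and so did Vcan and Tnfaip6 in the second.

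Other genes were read from a list of 69 genes, of which 63 were measured. It covers hyaluronan production, binding and breakdown, but also versican-cleaving proteases, versican partners and chondroitin sulfate synthesis. Its largest group is basement membrane and heparan sulfate proteoglycan genes, which held 8 of the 26 rises given next. The counts are therefore not those of hyaluronan genes alone. In cTnT+ against Flk1+Pdgfra+ 26 rose, 4 fell and 33 did not pass, with a median of 0.25 beside 0.00 over all genes, of which 22.5% rose and 18.7% fell. The split depended on the scaling: with arrays centred on the median of the named genes 19 rose and 12 fell. The 6 largest rises among genes whose arrays did not overlap were those of Lyve1, Tnc, Adamts1, Col18a1, Adamts5 and Stab1. The 4 that fell were Gpc1, Gnpnat1, Gfpt2 and Adamts20.

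**Figure D3:**
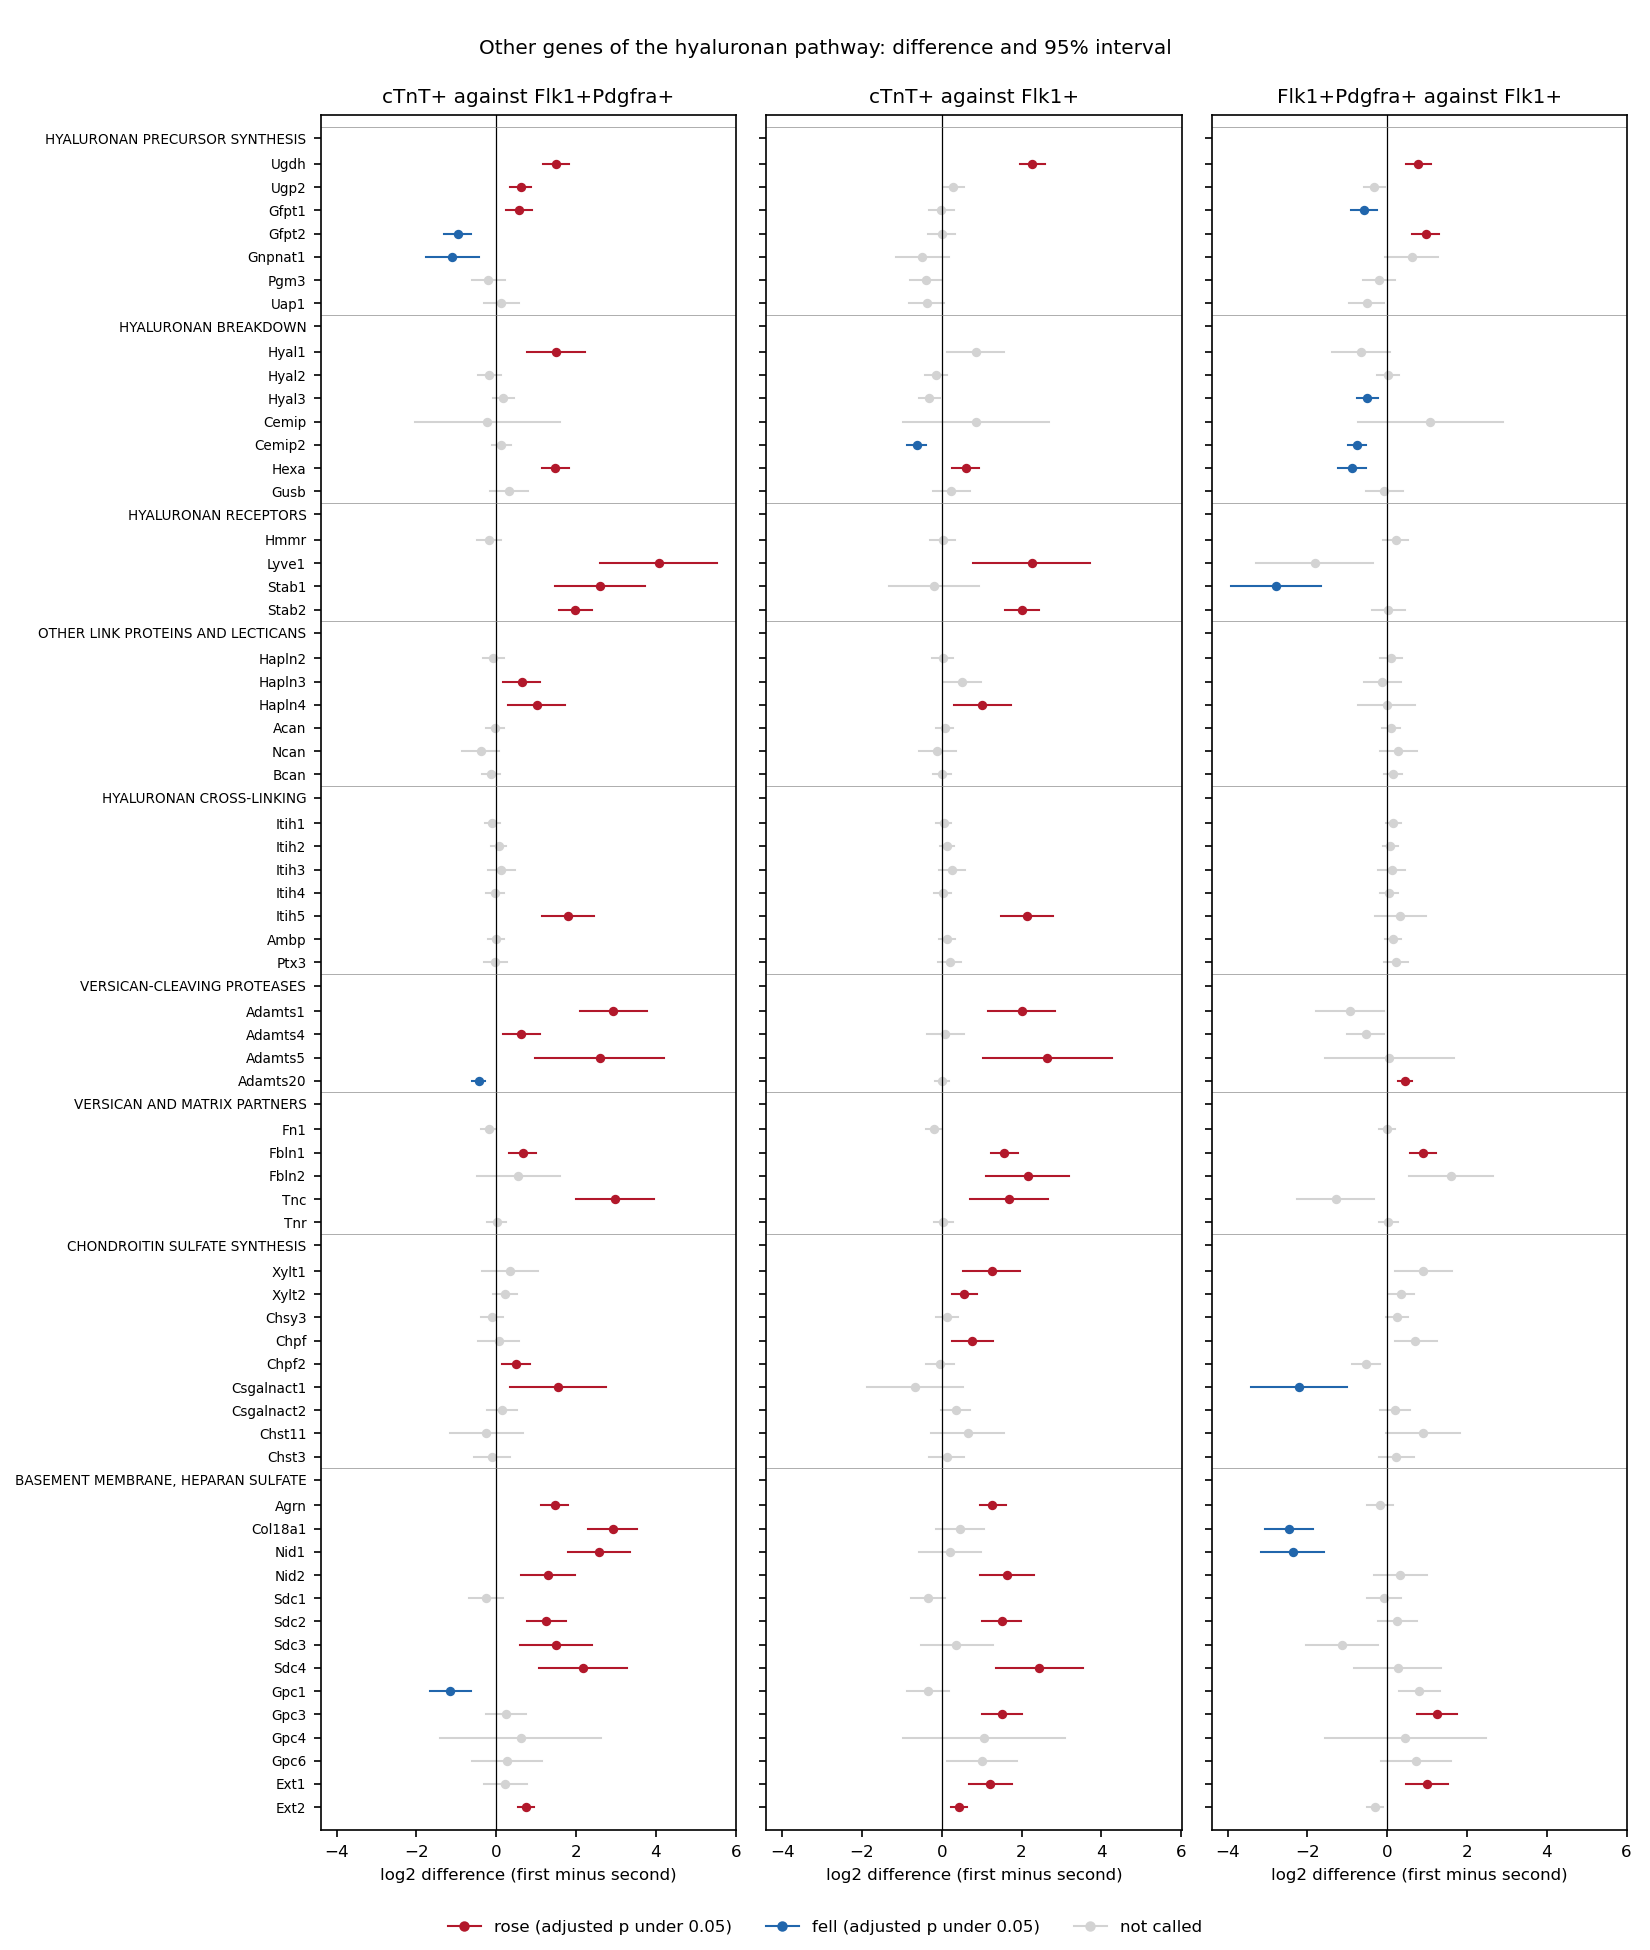
Log2 difference (x axis, first-named group minus second) with its 95% interval for 63 other genes of the pathway (y axis, grouped by role) in the 3 comparisons, coloured where limma gave an adjusted p under 0.05. In cTnT+ 26 rose and 4 fell against Flk1+Pdgfra+, beside 22.5% and 18.7% of all genes. Against Flk1+ 21 rose and 1 fell, beside 22.6% and 16.6%. Rises were 54.7% and 57.7% of the calls over all genes. With arrays centred on the median of the named genes the counts were 19 and 12, and 16 and 9. Rises were then 26.9% and 28.8% of the calls over all genes. Between the gates 6 rose and 8 fell, beside 4.64% and 5.87% of all genes.

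The groups by role hold few genes each, and their counts stand beside the same 22.5% of all genes that rose and 18.7% that fell. Among the receptors 3 of 4 rose in cTnT+ over Flk1+Pdgfra+. Lyve1, the hyaluronan receptor of lymphatic endothelium and some macrophages, was at 9.93, 10.32 and 7.56 in cTnT+, at 5.27, 5.41 and 4.92 in Flk1+Pdgfra+ and at 6.77, 6.76 and 7.53 in Flk1+. It rose 16.8-fold over Flk1+Pdgfra+ (adjusted p = 0.00125), a fold that is no exact measure since the Flk1+Pdgfra+ values lie under the lower quartiles. The scavenger receptor Stab1 rose 6.03-fold (adjusted p = 0.00327), and the remaining receptor, Hmmr, did not pass. These rises came with the 7 endothelial markers that rose, whose part was not tested.

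Of the 4 versican-cleaving proteases 3 rose and 1 fell. Adamts1 rose 7.64-fold (10.72 in cTnT+ and 7.79 in Flk1+Pdgfra+ on average, SE 0.37, adjusted p = 0.000398) and Adamts5 6.03-fold (adjusted p = 0.018), while Adamts20 fell 1.36-fold (adjusted p = 0.00188), with cTnT+ values of 5.68 to 5.75 at the lower quartiles, so that this fold is not exact either. The Adamts5 fold is no exact measure, since its Flk1+Pdgfra+ values lie under the lower quartiles. It was highest on the third cTnT+ array, at 9.74 beside 6.74 and 6.92, and its call was lost without Flk1+Pdgfra+ replicate 1 (adjusted p = 0.0559) and without the third progenitor arrays (adjusted p = 0.0518). That cTnT+ array also had the highest fibroblast marker level of its group, 14.09 on the log2 summed scale beside 12.10 and 12.50, and the part of such cells was not tested. The matrix protein gene Tnc, a partner of versican, rose 7.87-fold (adjusted p = 0.000729).

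In the basement membrane and heparan sulfate group 8 of 14 rose and 1 fell, beside 22.5% and 18.7% of all genes. Col18a1, which carries heparan sulfate and holds endostatin, rose 7.55-fold (adjusted p = 7.92e-05), and Gpc1, a cell surface glypican gene, fell 2.22-fold (adjusted p = 0.00401). The precursor genes split, with 3 of 7 higher and 2 lower: Gfpt2 fell 1.95-fold (adjusted p = 0.00112) and Gnpnat1 fell 2.15-fold (adjusted p = 0.0148). The call of Gnpnat1 was lost without Flk1+Pdgfra+ replicate 1 (adjusted p = 0.0514), without its replicate 3 (0.051) and without cTnT+ replicate 2 (0.0532). In the breakdown group the lysosomal enzymes Hyal1 and Hexa rose and the other 5 did not pass.

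Against Flk1+, 21 of the 63 genes rose in cTnT+, 1 fell and 41 did not pass, with a median of 0.25 beside 0.05 over all genes, of which 22.6% rose and 16.6% fell. With arrays centred on the median of the named genes, 16 rose and 9 fell. Ugdh was at 12.03, 11.95 and 12.02 in cTnT+ and at 9.61, 9.85 and 9.75 in Flk1+, a rise of 4.8-fold (SE 0.14, adjusted p = 2.40e-05). The cell surface proteoglycan Sdc4 rose 5.43-fold (adjusted p = 0.00412), Itih5, a heavy chain gene outside the liver, 4.39-fold (adjusted p = 0.000618) and the versican-binding fibulin Fbln2 4.43-fold (adjusted p = 0.006). Cemip2, a cell surface hyaluronidase, was the gene that fell, by 0.63 (adjusted p = 0.00163).

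Some of these calls were lost when 1 array was left out. Lyve1 rose 4.76-fold (adjusted p = 0.023), with a gap of 0.03 between the groups, and it did not pass without Flk1+ replicate 1 (adjusted p = 0.069), Flk1+ replicate 2 (0.0737), cTnT+ replicate 1 (0.0785) or cTnT+ replicate 2 (0.0723). It did not pass with only the 2 groups in the fit either (adjusted p = 0.0575). Adamts5 rose 6.24-fold (adjusted p = 0.0174), a fold that is not exact because its Flk1+ values of 5.23, 4.69 and 5.54 lie under the lower quartiles, and did not pass without Flk1+ replicate 2 (adjusted p = 0.0631). The count of genes that fell was 3 without Flk1+ replicate 1, Flk1+ replicate 3, cTnT+ replicate 2 or cTnT+ replicate 3, each left out alone.

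Between the gates, in Flk1+Pdgfra+ against Flk1+, 6 of the 63 genes rose, 8 fell and 49 did not pass, with a median of 0.09 beside 0.07 over all genes. Over all genes 4.64% rose and 5.87% fell. Stab1 fell 6.92-fold (adjusted p = 0.0104), Col18a1 5.5-fold (adjusted p = 0.00197), the laminin-binding Nid1 5.17-fold (adjusted p = 0.00488) and the chondroitin sulfate enzyme Csgalnact1 4.64-fold (adjusted p = 0.0329). The glypican Gpc3 rose 2.39-fold (adjusted p = 0.0095), the heparan sulfate polymerase Ext1 1.98-fold (adjusted p = 0.0316), Gfpt2 1.96-fold (adjusted p = 0.00597), Fbln1 1.87-fold (adjusted p = 0.00715), Ugdh 1.71-fold (adjusted p = 0.011) and Adamts20 1.37-fold (adjusted p = 0.00821). The Adamts20 fold is not exact, with Flk1+ values at the lower quartiles, and its call was lost with arrays centred on the median of the named genes (adjusted p = 0.0571). The call of Ext1 was lost with only the 2 groups in the fit (adjusted p = 0.0526).

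The hyaluronan-cleaving Cemip2 fell 1.69-fold (adjusted p = 0.00375) and the lysosomal Hexa 1.84-fold (adjusted p = 0.00871). The endothelial markers moved with these falls, 6 of 9 falling in the same comparison, and their part was not tested. Several calls were lost with 1 array left out. Csgalnact1 lost its call when any 1 of the 6 progenitor arrays was left out (adjusted p 0.0598 to 0.111), and Ext1 lost it without any of them but Flk1+ replicate 3 (adjusted p 0.0836 to 0.123). Ugdh lost it without Flk1+Pdgfra+ replicate 1 (0.0512) or replicate 2 (0.0503), and Stab1 without Flk1+ replicate 2 (0.0502). Counts moved as well: 13 rose without Flk1+ replicate 3 (and 13 without replicate 3 of both progenitor groups), and 5 fell without Flk1+Pdgfra+ replicate 1, 2 or 3 and 4 fell without Flk1+ replicate 2.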

How the data were processed

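RNA of 9 arrays, 3 in each of 3 groups given by the sample titles, was measured. The deposited values are log2 gene-level expression values that the authors made with RMA over the core genes in Transcriptome Analysis Console, per the labels. RMA and R 3.3.1 are listed in the submitters' processing notes. Neither the array library version nor its genome build is stated there: not given in the sources used here. RMA evens out the arrays, so differences in total RNA are not seen. The table held 23332 rows, of which 14996 carried exactly 1 gene symbol, 1019 several and 7317 none. Of the 14996, 14941 matched the RefSeq table of GRCm38.p6 by Entrez ID. The brightest row by mean was kept for each of 14860 genes, and each of the 8 genes described had 1 row. The number of arrays limits the precision.

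Groups were compared with limma 3.58.1 (R 4.3.3; lmFit and eBayes, two-sided, all 9 arrays in 1 fit, 6 residual degrees of freedom), with Benjamini-Hochberg adjustment over 14860 genes and a threshold of 0.05. The fit was tested on simulated data. The genes, the pathway list and the marker lists were chosen with earlier results of these data known. Named were the 8 genes, the sort markers, in each comparison up to 6 called pathway genes with the largest rise and up to 6 with the largest fall whose arrays did not overlap, and the 3 genes most like each of the 8 whose group means spanned at least 1 log2 unit, of which 1 is not reported here. Pathway genes measured were 63 of 69. A log2 summed level is the log2 of the sum of a list's unlogged values, so its brightest rows weigh most. Promoter windows came from RefSeq (GRCm38.p6) and were handled with Python 3.11.15 and pandas 2.3.3.

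The titles number the arrays 1 to 3 in each group. Deviations from the group means of same-numbered arrays correlated at 0.251, 0.325 and 0.460 between the progenitor groups. Between cTnT+ and either of them they correlated at 0.023 to 0.095. In both progenitor groups the third array stood apart, which with 3 centred arrays can make all 3 correlations positive. The correlations therefore cannot show whether the numbers pair the samples, and the titles do not say. Alternatives tried were other scalings, a block for the replicate number, a filter on dim genes, an intensity trend, array weights, other choices of rows, only the groups compared, and leaving out arrays.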

Additional observations from a re-analysis of the deposited data

How the results depend on the processing

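The calls of Vcan, Hspg2, Has3 and Tnfaip6 kept direction and threshold under every alternative run. Cd44, at 0.67 in cTnT+ against Flk1+Pdgfra+, passed with the replicate block (adjusted p = 0.0442), without the dimmest 25% of genes (0.0422) and with array weights (0.73, adjusted p = 0.0132). An alternative chosen after seeing the data, centring arrays on the median of the named genes, gave 1994 rises and 5406 falls over all genes in cTnT+ against Flk1+Pdgfra+, with 2 falls among the described genes and 12 in the pathway list. Against Flk1+ it gave 1909 and 4721 over all genes, with 3 falls among the described genes and 9 in the list. There Has1 fell in both comparisons (adjusted p = 0.0333 and 0.0425) and Hspg2 fell against Flk1+ (0.0195).

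Pathway falls in cTnT+ against Flk1+ numbered 3 with the replicate block, 2 without the dimmest genes, with quantile normalization, with median centring and with a trend, 5 with array weights, 3 without the third progenitor arrays and 1 to 3 leaving out 1 array. Testing every row of the table, named or not, gave 4076 falls there over 23332 rows and left the pathway falls at 1. The main fit gave 2464 falls over 14860 named genes, so these totals differ in the number tested and cannot be read as a shift. In Flk1+Pdgfra+ against Flk1+, where same-numbered arrays correlated, the replicate block gave 7 pathway rises and 9 falls and moved no pathway count there by over 1.5 times. Array weights gave 24 rises and 19 falls in the list and 4521 and 3017 over all genes. Without the third progenitor arrays 13 list genes and 1148 of all genes rose. Leaving out 1 array gave 4 to 13 rises and 4 to 12 falls in the list, and 203 to 1306 rises and 461 to 1003 falls over all genes. The causes of these shifts were not tested.

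Values near the lower quartiles of the arrays (Has1 in all groups, Has3 in cTnT+, Tnfaip6 in Flk1+Pdgfra+ and cTnT+, and Hapln1 on Flk1+Pdgfra+ replicate 3) have unknown distance from background, so folds there are not exact.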
